A study of Mus musculus with 80 samples.

Results

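The collagen gene family and Serpinh1, the gene of a chaperone that binds procollagen in the endoplasmic reticulum, were described in left ventricular tissue of C57Bl/6J mice. Members were protein-coding genes named Col, a number, a, and a number, plus Serpinh1, with a mean of at least 0.2 CPM, the count of a gene per library total after scaling, over the 80 libraries. The count table held 44 collagen genes of this form and Serpinh1, and 37 of these 45 reached the minimum. Below it lay Col9a1, Col6a4, Col6a5, Col19a1, Col11a1, Col24a1, Col10a1 and Col2a1, and the values nearest to the minimum were 0.332 CPM for Col17a1 inside it and 0.148 CPM for Col2a1 outside it. Of the 37 members, 36 passed the filter on low counts and were tested. Col25a1, with a mean of 0.382 CPM, did not pass and is given by its level only.

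The libraries were poly-A selected RNA sequencing libraries in 8 groups of 10. Each sex had a sham group on a normal diet at 0 cGy (centigray, a unit of absorbed dose), a group on a Western diet at 0 cGy, a group on a normal diet given 50 cGy of a field labelled Mix, and a group on a normal diet given 100 cGy of gamma rays. All libraries are labelled with the same strain, and no other allele or agent is named. The labels do not name the components of the mixed field, the animals' age or the time after exposure, and they do not say whether libraries of a group came from separate animals. No group combined the Western diet with radiation, and the 3 comparisons against sham within a sex used the same 10 sham libraries. Sample titles carried numbers from 1 to 40 in each sex, and each group held 5 libraries of title numbers 1 to 20 and 5 of title numbers 21 to 40. What separates these ranges, and whether it is the same in both sexes, is not stated, and they are called by their numbers here.

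Collagens are trimers of alpha chains, whose genes fall into classes by the structure they build. Fibrillar chains form the load-bearing fibres of the myocardial interstitium, type IV chains form the sheet of basement membranes around cardiomyocytes and capillaries, and type VI chains form beaded filaments between them. New chains are hydroxylated and folded with the help of Serpinh1 in the endoplasmic reticulum, trimmed outside the cell, cross-linked by lysyl oxidases and degraded by metalloproteinases, which TIMP proteins inhibit. In the heart, fibroblasts are the main source of fibrillar collagen, while endothelial and mural cells also make basement membrane collagen. In bulk tissue, fewer cells of a type and less RNA per cell cannot be told apart.

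Total counts ran from 13484776 to 22143504 per library with a mean of 16518589, and collagen members made up 0.0988% to 0.375% of them. Defining markers of cardiomyocytes, fibroblasts and endothelial cells were above 0 in all 80 libraries, among them the fibroblast receptor gene Pdgfra at 17.5 to 51.9 CPM and the endothelial receptor gene Kdr at 138.8 to 351.7 CPM. The library of female gamma replicate 7 went against its label, with 0.129 CPM of Xist against at least 102.2 CPM in each of the other 39 female libraries. It had no count of the Y-linked Ddx3y, and counts that rest on it are given with and without it. Myl7, an atrial myosin light chain gene, was above 10 CPM in 20 male libraries and in no female library, where the highest value was 0.452 CPM. These were 6 sham, 5 Western diet, 3 mixed field and 6 gamma libraries of males, and they included all 5 libraries of title numbers 1 to 20 in the sham, Western diet and gamma groups.

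The 200 bases upstream of the annotated start are shown for 4 members that the results turn on: Col5a3 and Col14a1, whose groups differed most, and Col1a1 and Col3a1, which followed each other across libraries. They are read 5′ to 3′ on the gene's own strand from the mouse assembly GRCm39. Capitals mark matches to CCAAT, to the GC box letters GGGCGG and to the TATA box letters TATAAA, searched on both strands, so a match on the other strand appears as its reverse complement.
Col5a3: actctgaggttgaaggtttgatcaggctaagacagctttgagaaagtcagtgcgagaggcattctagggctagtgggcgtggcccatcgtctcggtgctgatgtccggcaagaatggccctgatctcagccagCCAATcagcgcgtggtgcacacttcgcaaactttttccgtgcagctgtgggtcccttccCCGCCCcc
Col14a1: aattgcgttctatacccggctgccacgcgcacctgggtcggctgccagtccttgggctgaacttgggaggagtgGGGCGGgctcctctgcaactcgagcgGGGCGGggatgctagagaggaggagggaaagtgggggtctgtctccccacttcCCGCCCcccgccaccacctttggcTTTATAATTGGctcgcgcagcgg
Col1a1: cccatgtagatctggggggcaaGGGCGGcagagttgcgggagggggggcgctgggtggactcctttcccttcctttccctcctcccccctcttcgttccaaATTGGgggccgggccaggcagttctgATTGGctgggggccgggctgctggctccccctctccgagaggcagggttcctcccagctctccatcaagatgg
Col3a1: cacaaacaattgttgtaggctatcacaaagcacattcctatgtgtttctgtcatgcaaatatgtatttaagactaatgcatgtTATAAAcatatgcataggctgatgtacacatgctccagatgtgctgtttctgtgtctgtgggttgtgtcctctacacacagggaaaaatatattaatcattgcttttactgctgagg
These stretches lie at chr9:20726419-20726618 on the minus strand, and at chr15:55170940-55171139, chr11:94826850-94827049 and chr1:45350498-45350697 on the plus strand, and none overlaps an annotated exon. Col1a1 held CCAAT and GGGCGG while Col3a1 held TATAAA only, and Col14a1 held all of these motifs. Among the 200-base stretches of all 37 members, 10 (27%) held CCAAT against 32.3% of 21770 protein-coding genes, and 17 (45.9%) held GGGCGG against 34.8%. TATAAA was in 5 of 37 (13.5%) against 9.57% of all. The letters GAANNTTC, the core of the heat shock element, were found in 1 of 37 (2.7%) against 4.92%, and that member was Col4a5. CACGTG was in none of the 37 against 5.43% of all promoters. A match is a description of letters in this window only.

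Per kilobase of exon, basement membrane collagen led. Exon length joined all annotated exons of a gene over its transcripts, which can be longer than the transcript in use. Orders between genes per kb depend on these lengths. The 6 type IV chains summed to 123.12 CPM per kb, the 8 fibrillar members of 11 fibrillar genes to 63.41, the 4 type VI members of 6 to 29.92, and the multiplexins Col15a1 and Col18a1 to 17.67. The 7 FACIT members of 9, which decorate fibrils, summed to 5.97 CPM per kb, the short chain network members Col8a1 and Col8a2 to 3.8, and the 4 transmembrane collagens to 0.9. Col4a1 and Col4a2, the chains of the common type IV trimer, stood at 61.3 and 55.8 CPM per kb and carried 25% and 22.7% of all collagen CPM per kb. The tissue-restricted type IV chains were far lower: Col4a5 had 4.40 CPM per kb, Col4a4 1.0, Col4a3 0.316 and Col4a6 0.307. Serpinh1 was at 28.6 CPM per kb over 7015 joined exon bases, below Col4a1 and Col4a2 and above every other collagen. By CPM alone it held the same place, with 200.4 against 457.9 for Col4a1, 400.3 for Col4a2 and 190.0 for Col3a1. How far it stood from them per kb depends on the lengths used.

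Among fibrillar chains the order per kb was Col3a1 (18.5 CPM per kb), Col1a1 (17.4) and Col1a2 (10.9). Then came the type V chains Col5a1 (6.41), Col5a3 (5.64) and Col5a2 (2.91), with Col27a1 at 0.98 and the cartilage-associated Col11a2 at 0.70. By CPM alone Col1a2 (138.2) was above Col1a1 (114.0). Their joined exon lengths were 12650 and 6567 bases, so the order of these 2 chains turned with the length used. In type VI, Col6a1 was highest per kb (16.4) and Col6a6 lowest (0.70), while by CPM alone Col6a2 (97.7) was near Col6a1 (95.7). In the multiplexins, which occur in vascular and muscle basement membranes, Col15a1 was at 15.4 and Col18a1 at 2.28. The highest FACIT was Col14a1 (2.99) and the lowest Col12a1 (0.116). Col8a1, a chain of subendothelial networks, was at 3.5 against 0.295 for Col8a2. The highest transmembrane collagen was Col23a1 (0.488) and the lowest Col25a1 (0.029). The anchoring fibril gene Col7a1 was at 0.195, and Col28a1 (0.128) and Col26a1 (0.047) fall outside these classes. Of the 37 members, 15 shared no exonic base with another annotated gene and 4 shared more than 10%, namely Col18a1 (12.7%, with Slc19a1), Col9a3 (11.8%, with Tcfl5), Col1a2 (10.3%) and Col4a3 (10.1%). Col4a1 and Col4a2 share 4.94% and 4.93% of theirs, and whether counting used strand is not stated, so reads in shared bases are of uncertain origin.

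**Figure D1:**
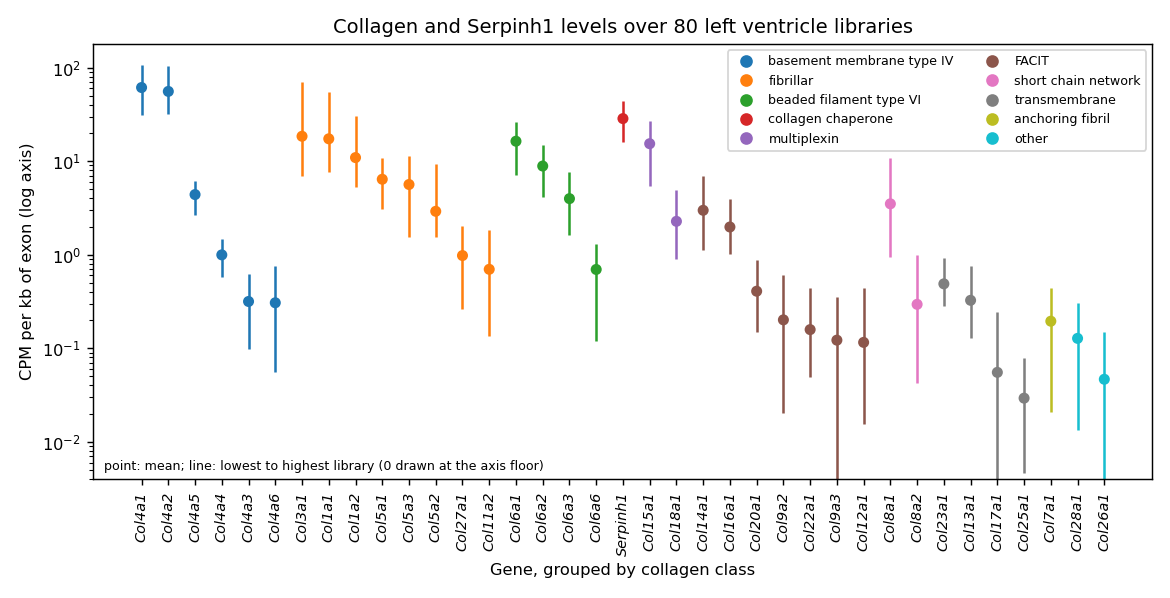
Mean CPM per kilobase of exon of each of the 37 members over 80 libraries, on a log axis, coloured by collagen class, with the lowest and highest library. Col4a1 (61.3) and Col4a2 (55.8) stand highest and Serpinh1 (28.6) next, and the members span down to Col25a1 (0.029).

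Summed over collagens, the level per kb was 269.1 ± 30.7 (SD, n = 10) in male sham, 212.7 ± 60.5 in male Western diet, 218.8 ± 84.3 in male mixed field and 261.3 ± 37.9 in male gamma libraries. In females it was 250.7 ± 76.8 in sham, 242.0 ± 51.2 in Western diet, 272.4 ± 84.0 in mixed field and 234.2 ± 47.4 in gamma libraries. These sums describe the groups only, and the tests below are per gene, from 1 edgeR quasi-likelihood fit, with p-values adjusted over the 15879 genes tested and called under 0.05. Changes are log2 differences with their standard error. Counts of genes at an unadjusted p under 0.05 are description only. The share of all genes under that cut is not given beside them, so they do not show an excess. Counts of positive or negative changes are description too, as members vary together across libraries and the share over all genes is not given.

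Serpinh1 was the member that fell in males on the Western diet, where 1 of 36 members was called against 0.397% of all genes tested. Its level was 161.5 CPM at the lowest, 202.1 at the median and 233.8 at the highest in male sham libraries, and 113.1, 158.5 and 187.0 in male Western diet libraries. The change was −0.39 ± 0.09 (95% interval −0.58 to −0.21), a drop of 23.8%, with an adjusted p of 0.0307. The groups overlap between 161.5 and 187.0 CPM, and the Western diet median lies below every sham library. Within title numbers 1 to 20 the change was −0.35 (adjusted p = 0.0780) and within 21 to 40 it was −0.44 (adjusted p = 0.481). It was −0.40 without the libraries above 10 CPM of Myl7, with an adjusted p of 0.952. That fit kept male sham replicates 7 to 10 and male Western diet replicates 6 to 10, all of title numbers 21 to 40. It is therefore not separate from the fit within 21 to 40, and does not tell Myl7 from title range.

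The call on Serpinh1 was near the threshold. The change ran from −0.427 to −0.346 over the 20 fits that left out 1 library. The call ended when any of 13 of the 20 libraries was left out, with adjusted p from 0.05 to 0.0853. Those were male sham replicates 1, 3, 4, 6, 9 and 10 and male Western diet replicates 1, 2, 3, 4, 7, 9 and 10. The summed CPM of 8 fibroblast markers had a median of 2040 (1450 to 2550) in male sham and 1840 (1220 to 2370) in male Western diet libraries, and none of the 8 was called. The 8 endothelial markers summed to a median of 1400 and 1370 CPM in these groups. The 6 atrial markers summed to a median of 238 and 60.8 CPM, and 1 of the 6 was called lower, with a median change of −0.566. In the male minus female difference for the diet, 1 of 6 atrial markers was also called lower. Rn18s-rs5, a ribosomal RNA gene, took 1.74% ± 0.71 of counts (SD, n = 10) in male sham and 1.06% ± 0.82 in male Western diet libraries, and 1.45% against 0.319% in title numbers 1 to 20. With terms for title range and Rn18s-rs5 in each sex, chosen after seeing the data, the change of Serpinh1 was −0.38 (adjusted p = 0.0798) and no member was called. The part of the marker levels in the change was not tested.

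Serpinh1 did not pass the test in any other comparison of diet or field. Its median was 169.3 CPM (154.8 to 262.4) in male mixed field and 202.2 CPM (147.1 to 214.7) in male gamma libraries. In females it was 197.1 (163.2 to 306.2) in sham, 198.2 (166.7 to 267.8) in Western diet, 222.3 (187.7 to 273.2) in mixed field and 205.2 (176.5 to 257.2) in gamma libraries. These 6 groups overlap throughout, and the Western diet males have the lowest median of all 8. The male minus female difference in its response to the Western diet was −0.37 ± 0.13 (95% interval −0.62 to −0.11), with an adjusted p of 0.284.

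Col5a3, the minor type V chain, gave the clearest difference between the sexes in the response to the Western diet. Its level was 30.4, 42.8 and 65.7 CPM (lowest, median and highest) in male sham libraries and 12.4, 22.8 and 63.2 in male Western diet libraries. In females it was 14.1, 38.3 and 50.0 CPM in sham and 26.4, 50.5 and 77.7 in Western diet libraries. The medians thus lie in opposite order in the sexes, with overlap in both. The difference between the sexes was −1.48 ± 0.33 (95% interval −2.12 to −0.84; adjusted p = 0.0121), the only member of 36 called in this comparison against 0.447% of all genes.

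Taken separately, neither sex passed the test for Col5a3. The change in males was −0.83 ± 0.23 (adjusted p = 0.0741) and the one in females 0.65 ± 0.23 (adjusted p = 0.530). Within title numbers 1 to 20 the male Western diet values ran from 12.4 to 24.8 CPM and the male sham values from 30.4 to 51.7, without overlap, a change of −1.38 (adjusted p = 0.000605). Within 21 to 40 they ran from 21.6 to 63.2 and from 36.6 to 65.7, a change of −0.49 (adjusted p = 0.948). The male change passed the test without male sham replicate 5 or male Western diet replicate 6 (adjusted p = 0.0405 and 0.00533) and with limma-voom (adjusted p = 0.0374). It also passed with a term for title range in each sex (−0.88, adjusted p = 0.0245), but not with a further Rn18s-rs5 term (−0.68, adjusted p = 0.256). The difference between the sexes was −1.73 (adjusted p = 0.00238) and −1.52 (adjusted p = 0.211) in these ranges. It stayed called in each of 40 fits that left out 1 library, and was −1.09 with an adjusted p of 0.477 without the libraries above 10 CPM of Myl7. The male sham and Western diet libraries kept in that fit were all of title numbers 21 to 40, and no female library was left out.

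**Figure D2:**
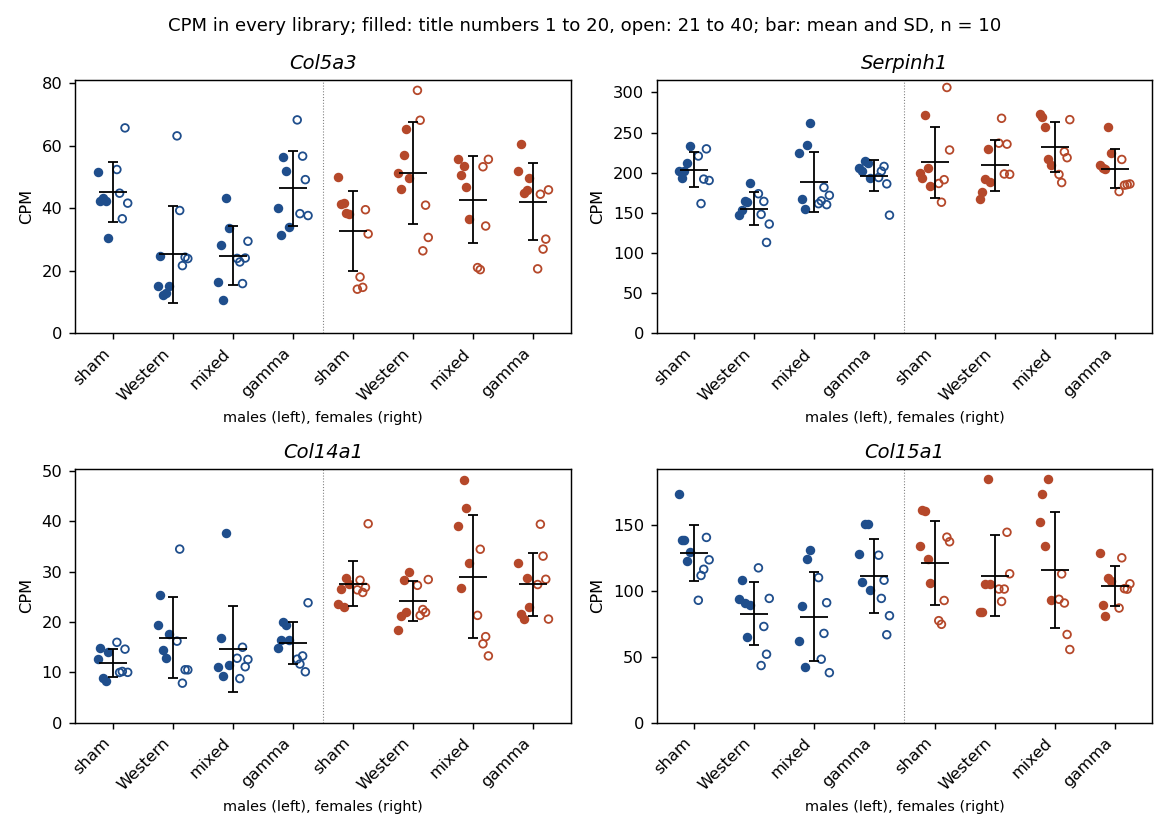
CPM of Col5a3, Serpinh1, Col14a1 and Col15a1 in each library by group, with filled points for title numbers 1 to 20, open points for 21 to 40, and the group mean with its SD (n = 10). Male Western diet libraries are low in Col5a3 and Serpinh1, and male and female sham libraries do not overlap in Col14a1.

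Col5a3 was also the member called between the fields in males. Male mixed field libraries had 10.6, 24 and 43.2 CPM (lowest, median and highest), and male gamma libraries 31.3, 44.6 and 68.3. The mixed field median lies below every gamma library, and the groups overlap between 31.3 and 43.2 CPM. The difference was −0.90 ± 0.23 (95% interval −1.35 to −0.45; adjusted p = 0.0418), 1 member of 36 called against 0.573% of all genes, and it was −0.68 within title numbers 1 to 20 (adjusted p = 0.209) and −1.11 within 21 to 40 (adjusted p = 0.183). The doses differ, 50 cGy against 100 cGy, so field and dose cannot be told apart.

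This call ended when any of 14 of the 20 libraries was left out, with adjusted p from 0.0527 to 0.107. Those were male mixed field replicates 1, 2, 3, 6, 7, 8, 9 and 10 and male gamma replicates 3, 4, 6, 8, 9 and 10. With limma-voom the adjusted p was 0.0543. Against sham, the mixed field change of Col5a3 in males was −0.86 ± 0.23 (adjusted p = 0.158) and the gamma change 0.04 ± 0.23 (adjusted p = 0.997). In females, Col5a3 had medians of 48.7 CPM (20.3 to 55.7) in mixed field and 45.3 (20.6 to 60.5) in gamma libraries, a difference of 0.02 ± 0.23.

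Col15a1, a multiplexin of vascular and muscle basement membranes, was low in the same male groups but did not pass the test. Male sham libraries had 92.8, 126.5 and 173.2 CPM (lowest, median and highest), Western diet libraries 43.3, 89.8 and 117.4, mixed field libraries 37.8, 78.2 and 131.1, and gamma libraries 66.6, 107.2 and 150.9. The Western diet median lies below every sham library, and so does the mixed field median. The changes were −0.64 ± 0.18 for the diet (adjusted p = 0.0835) and −0.68 ± 0.18 for the mixed field (adjusted p = 0.158), and they were near the same size in title numbers 1 to 20 and 21 to 40 (−0.65 and −0.63 for the diet, −0.64 and −0.72 for the field). The diet change passed the test with a term for title range in each sex (adjusted p = 0.0394), with the groups compared fitted alone (adjusted p = 0.0429) and without male Western diet replicate 6 (adjusted p = 0.0484), but not with a further Rn18s-rs5 term (−0.56, adjusted p = 0.268). The field change passed without male mixed field replicate 5 (adjusted p = 0.0472). For gamma rays the change was −0.21 ± 0.18 (adjusted p = 0.971).

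The type VI chains Col6a1 and Col6a2, partners in 1 trimer, gave values like those of Col15a1 in males. Col6a1 had 82.4, 102.1 and 131.9 CPM (lowest, median and highest) in sham, 56.6, 71.3 and 99.0 in Western diet and 42.1, 68.4 and 128.5 in mixed field libraries. Its changes were −0.46 ± 0.14 (adjusted p = 0.101) and −0.43 ± 0.14 (adjusted p = 0.285), and those of Col6a2 −0.46 ± 0.15 (adjusted p = 0.132) and −0.44 ± 0.15 (adjusted p = 0.332). The groups overlap for both genes and neither passed the test, though both were called for the diet when the groups compared were fitted alone. All 4 tested type VI members had negative changes in Western diet males, with a median of −0.401.

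None of the 6 type IV chains passed the test in Western diet males, where 1 of 6 had a positive change and the median was −0.129. Col4a1 had 424.6, 520.3 and 613.9 CPM (lowest, median and highest) in male sham, 234.5, 348.2 and 559.6 in Western diet, 288.9, 369.4 and 643.0 in mixed field and 379.4, 501.7 and 602.9 in gamma libraries. The change with the diet was −0.49 ± 0.17 (adjusted p = 0.167) for Col4a1 and −0.43 ± 0.16 (adjusted p = 0.218) for Col4a2. The highest Western diet and mixed field libraries reach into the sham range, and the SD was 55.6 CPM in sham, 100.8 in Western diet, 124.6 in mixed field and 71.6 in gamma males.

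Over all members, the Western diet in males gave a median change of −0.111, with 12 of 36 positive, beside −0.00539 over all genes, and of −0.215 without the libraries above 10 CPM of Myl7. DESeq2 also called 1 member and limma-voom 2, and 8 of 36 members had an unadjusted p under 0.05. For the mixed field in males edgeR called 0 of 36 members, against 0.0693% of all genes, with 6 at an unadjusted p under 0.05 and 0 called by DESeq2 or limma-voom. The median change there was −0.156, with 7 positive, beside 0.00728 over all genes, and by class it was −0.303 for type IV with 1 of 6 positive. For mixed field against gamma in males the median was −0.199 with 6 positive, beside 0.00835. These comparisons share libraries and are not independent of each other.

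**Figure D3:**
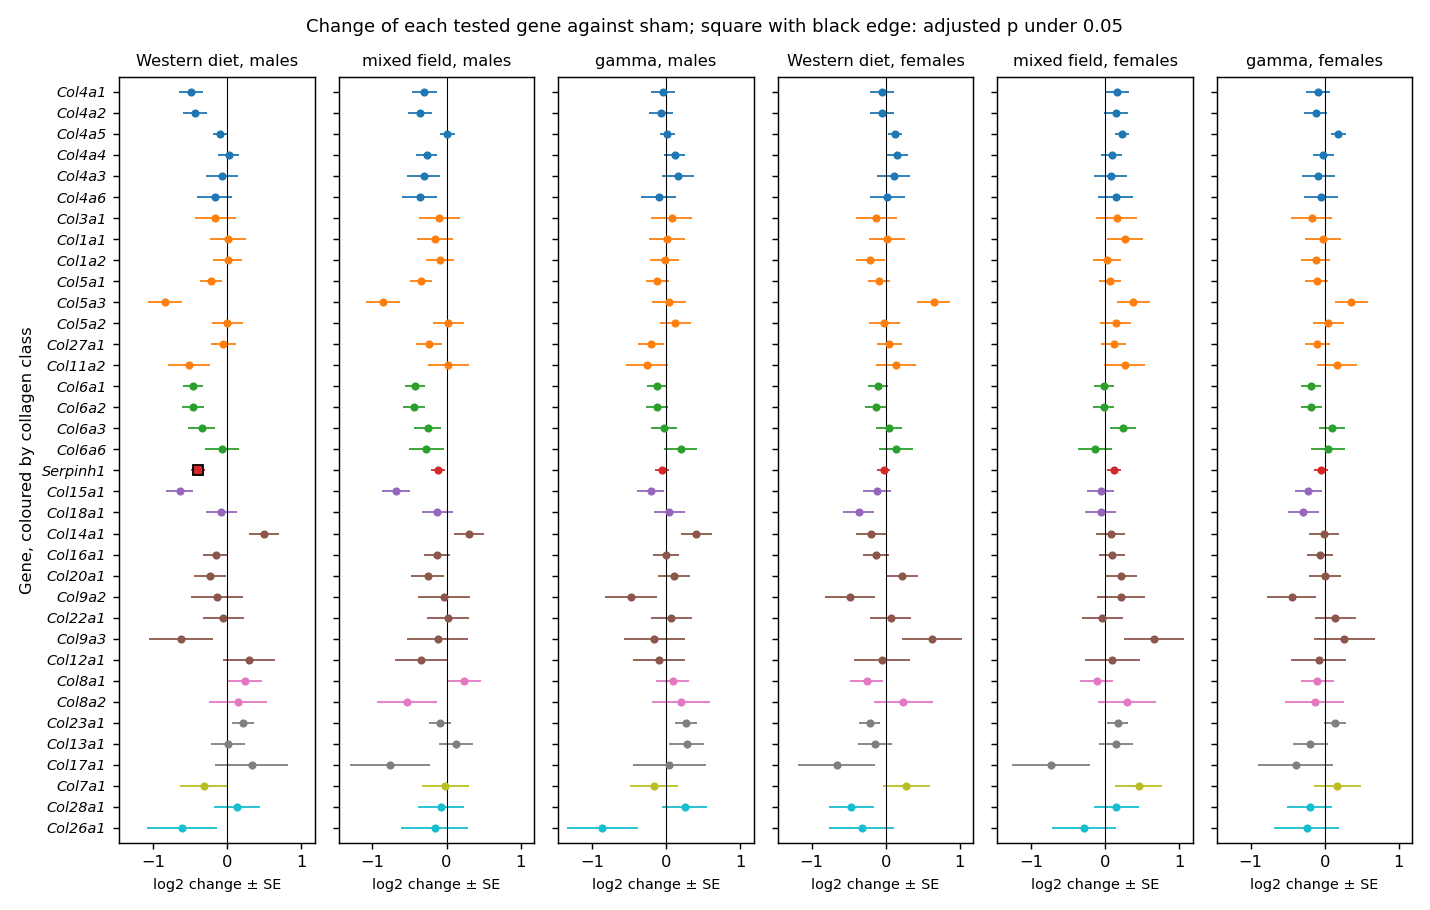
Log2 change of each of the 36 tested members against sham of the same sex, with its SE, in 6 panels for Western diet, mixed field and gamma in males and females, coloured by class. A black-edged square marks a called member, and the single one is Serpinh1 in Western diet males (−0.39).

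In Western diet females, edgeR called 0 of 36 members against 0.0189% of all genes, with 1 member at an unadjusted p under 0.05 and 0 called by DESeq2 or limma-voom. The smallest p-values were those of Col5a3, given above, of Col18a1, the endostatin precursor (−0.37, adjusted p = 0.726), and of the FACIT gene Col9a3 (0.63, adjusted p = 0.749). The median over members was −0.0458, with 15 of 36 positive, beside 0.00361 over all genes.

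Col3a1, Col1a1 and Col1a2, the main fibrillar chains, did not pass the test in any comparison of diet or field. Col3a1 had 142.6, 181.1 and 351.0 CPM (lowest, median and highest) in male sham, 71.2, 154.2 and 376.6 in Western diet, 83.2, 113.3 and 730.4 in mixed field and 120.6, 205.4 and 270.6 in gamma libraries. In females it had 91.5, 194.4 and 303.5 CPM in sham, 119.0, 168.2 and 231.4 in Western diet, 93.2, 192.7 and 442.5 in mixed field and 105.7, 160.8 and 304.7 in gamma libraries. All 8 groups overlap. The changes of Col3a1 against sham ran from −0.17 ± 0.28 in gamma females to 0.16 ± 0.28 in mixed field females, and its 95% interval for the Western diet in males was −0.71 to 0.39.

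Col1a1 and Col1a2, the chains of type I collagen, changed against sham by 0.01 ± 0.24 and 0.01 ± 0.19 in Western diet males, where the medians of Col1a1 were 103.8 CPM (53.2 to 323.3) against 119.6 (97.6 to 194.9). In mixed field males the median of Col1a1 was 81.6 CPM and its highest library 363.0. That library, male mixed field replicate 4, was also the highest of its group in Col3a1 (730.4 CPM), Col1a2 (387.2), Col14a1 (37.7) and Col8a1 (85.0). The next library of the group had 213.9 CPM of Col3a1 and 121.4 of Col1a1. For Col8a1 the change was 0.24 ± 0.23 (adjusted p = 0.704) in Western diet males and 0.23 ± 0.23 (adjusted p = 0.841) in mixed field males.

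For gamma rays in males edgeR called 0 of 36 members against 0.176% of all genes. Col14a1 was the 1 member at an unadjusted p under 0.05 (0.41 ± 0.21, adjusted p = 0.918), and DESeq2 and limma-voom called 0. The next smallest p-values were those of the transmembrane collagen Col23a1 (0.27, adjusted p = 0.949) and of Col26a1 (−0.86, adjusted p = 0.949). The median over members was 0.00439 with 18 of 36 positive, beside 0.00339 over all genes. In gamma females edgeR called 0 members, and 0% of all genes, with 0 members at an unadjusted p under 0.05 and 0 by DESeq2 or limma-voom, with or without replicate 7. The smallest p-values were those of Col4a5 (0.19, adjusted p = 0.491), Col5a3 (0.36, adjusted p = 0.560) and Col18a1 (−0.29, adjusted p = 0.603), and the median was −0.0864 beside −0.00329. The male minus female difference in the gamma response also had 0 of 36 members and 0% of genes called by edgeR, with 0 members at an unadjusted p under 0.05 and 0 by the other tools, and without replicate 7 it had 0 members and 0.00625% of genes. Col13a1 (0.47), Col14a1 (0.42) and Col4a5 (−0.17) had the smallest p-values.

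In mixed field females edgeR called 0 members, and 0% of all genes, with 1 member at an unadjusted p under 0.05 (Col4a5, 0.23, adjusted p = 0.756) and 0 by DESeq2 or limma-voom. Col5a3 (0.38, adjusted p = 0.821) and Col9a3 (0.66, adjusted p = 0.824) followed. The median was 0.133 with 27 of 36 positive, beside 0.00516 over all genes, and all 8 fibrillar members were positive. It was −0.176 in title numbers 21 to 40 alone. Collagen took 0.279% ± 0.049 of counts (SD, n = 5) in title numbers 1 to 20 and 0.159% ± 0.021 in 21 to 40. The change of Col3a1 against sham was 0.52 in the first range and −0.46 in the second, that of Col1a1 0.66 and −0.24, and that of Col4a1 0.51 and −0.32. The direction for these chains therefore turned with the title range, and no change within a range passed the test.

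The male minus female difference in the mixed field response had 0 of 36 members called by edgeR against 0.0315% of all genes, with 5 at an unadjusted p under 0.05 and 0 by the other tools. The smallest p-values were those of Col5a3 (−1.24 ± 0.33, adjusted p = 0.195), Col15a1 (−0.62 ± 0.26, adjusted p = 0.474) and Col4a2 (−0.50 ± 0.23, adjusted p = 0.519). Its median was −0.304 with 4 of 36 positive, beside 0.00756 over all genes. Between mixed field and gamma females edgeR called 0 of 36 members against 0.0252% of all genes, with 1 at an unadjusted p under 0.05 and 0 by the other tools, and 0 against 0.0187% without gamma replicate 7. That member was the FACIT gene Col9a2 (0.66, adjusted p = 0.349), followed by Serpinh1 (0.18 ± 0.09, adjusted p = 0.376) and Col4a2 (0.27 ± 0.16, adjusted p = 0.449).

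Between the sham groups of the sexes, 1 of 36 members was called, against 1.2% of all genes. Col14a1, a FACIT collagen that binds the surface of fibrils, was lower in males. It had 8.25, 11.4 and 15.96 CPM (lowest, median and highest) in male sham libraries and 23.1, 26.7 and 39.6 in female sham libraries, so the groups do not overlap. The difference was −1.21 ± 0.20 (95% interval −1.61 to −0.81; adjusted p = 8.14e-05), a level 56.9% lower. Within title numbers 1 to 20 it was −1.14 (adjusted p = 0.0181), within 21 to 40 it was −1.27 (adjusted p = 0.00526), and it stayed called in each of 20 fits that left out 1 library.

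The other groups kept female medians of Col14a1 above male ones. Males had medians of 15.3 CPM (7.83 to 34.5) in Western diet, 11.97 (8.75 to 37.7) in mixed field and 15.5 (10.1 to 23.8) in gamma libraries. Females had medians of 22.2 CPM (18.4 to 30) in Western diet, 29.2 (13.3 to 48.3) in mixed field and 27.98 (20.5 to 39.5) in gamma libraries. These treated groups overlap between the sexes. Fibroblast markers summed to a median of 2040 CPM (1450 to 2550) in male sham and 2170 (1930 to 2380) in female sham libraries. In male sham 4 of 6 atrial markers were called higher, with a median difference of 5.43, and the 4 adipocyte markers had a median of 1.19 with none called. Without the libraries above 10 CPM of Myl7 the difference of Col14a1 was −1.31 (adjusted p = 0.00448). That fit kept male sham replicates 7 to 10, all of title numbers 21 to 40, and all female sham libraries. The part of the other markers was not tested.

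The title ranges differed in a large share of all genes, and the counts of members are given beside that share. In males, title numbers 21 to 40 against 1 to 20 gave 18 of 36 members called, 5 higher and 13 lower, where 29.8% of all genes were called, 17% higher and 12.8% lower. In females 5 of 36 members were called, 1 higher and 4 lower, against 24% of all genes, 11.9% higher and 12.1% lower. These comparisons are within group, averaged over the 4 groups of a sex, with 20 libraries in each range. The comparisons of diet or field have 10 libraries in each group, so the counts of calls are not on 1 scale. DESeq2 called 17 and 6 members and limma-voom 16 and 6.

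Of the fibrillar chains in males, Col1a2, Col3a1, Col5a1 and Col5a2 were lower in title numbers 21 to 40, and Col11a2 and Col27a1 higher. Col1a2 had 84.6, 156.0 and 387.2 CPM (lowest, median and highest) in the first range and 66.2, 117.0 and 204.6 in the second, a difference of −0.53 ± 0.12 (adjusted p = 0.000258). Col3a1 differed by −0.58 ± 0.17 (adjusted p = 0.00676) and Col5a2 by −0.42 ± 0.13 (adjusted p = 0.00867). Col11a2 had 0.995, 2.31 and 7.27 CPM in the first and 2.83, 5.27 and 9.43 in the second, a difference of 0.79 ± 0.18 (adjusted p = 0.000481). The ranges overlap for each of these genes.

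The largest differences among called members in males were in low-level ones. Col7a1, the anchoring fibril chain, had 0.213, 1.07 and 2.58 CPM in the first range and 1.27, 2.57 and 4.35 in the second, a difference of 1.21 ± 0.19 (adjusted p = 9.76e-07). In females its values were 1.33, 1.88 and 3.87 CPM and 1.37, 2.10 and 4.58. Col8a2 had 0.372, 1.74 and 5.03 CPM and then 0.214, 0.965 and 2.18 in males, a difference of −1.13 ± 0.25 (adjusted p = 0.00031). Col18a1 was lower by −0.59 ± 0.13 (adjusted p = 0.000244) and Serpinh1 by −0.17 ± 0.06 (adjusted p = 0.0335). The FACIT genes Col20a1 and Col9a3 were higher, by 0.61 and 0.80, and Col12a1, Col16a1 and Col22a1 lower, by −0.73, −0.30 and −0.48. The other called members in males were Col4a6 (−0.46), Col6a6 (−0.53) and Col15a1 (−0.31).

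In females, Col17a1, a transmembrane collagen of epithelial anchorage, had a median of 0.370 CPM in the first range and 0.124 in the second, with a difference of −1.57 ± 0.35 (adjusted p = 0.000572). Col5a3 differed by −0.49 ± 0.14 (adjusted p = 0.00717), Col5a1 by −0.29 ± 0.10 (adjusted p = 0.0198) and Col6a3 by −0.29 ± 0.11 (adjusted p = 0.0467), all lower in 21 to 40. Col22a1 was higher by 0.54 ± 0.18 (adjusted p = 0.0211). Without female gamma replicate 7, 8 members were called against 22.8% of all genes, the added ones being Col3a1, Col6a2 and Col15a1, and without female sham replicate 10, 9 were called, with Col4a4 besides. These values were not called in the full set.

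Several of the title range calls did not hold in every fit that left out 1 library. In females the call on Col22a1 ended without female sham replicate 9 or female Western diet replicate 9 (adjusted p from 0.0515 to 0.0724), and that on Col6a3 in 24 of 40 fits that left out 1 library (0.0510 to 0.0770). In males the calls on Col3a1 (−0.37, adjusted p = 0.0526) and Col5a2 (−0.27, adjusted p = 0.0589) ended without male mixed field replicate 4, and that on Col4a6 without male sham replicate 2 (adjusted p = 0.0740). The call on Serpinh1 ended without male gamma replicate 10, male mixed field replicate 4 or 5, male sham replicate 7 or male Western diet replicate 5 or 9 (adjusted p from 0.0525 to 0.0819). Those on Col16a1, Col9a3, Col15a1, Col5a1 and Col22a1 ended in 22, 13, 12, 11 and 11 of 40 fits, with libraries of all 4 male groups among those left out. The calls on the other members named were kept in every such fit.

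The difference between title ranges itself differed between the sexes for 8 of 36 members, 4 in each direction, against 26.9% of all genes, 14.6% higher and 12.3% lower, and without female gamma replicate 7 for 8 members against 26.3%. As male minus female difference, Col8a2 had −1.55 ± 0.35 (adjusted p = 0.000529), Col22a1 −1.02 ± 0.25 (adjusted p = 0.00168), Col18a1 −0.70 ± 0.18 (adjusted p = 0.00233) and Col1a2 −0.56 ± 0.16 (adjusted p = 0.00749). Col7a1 had 1.12 ± 0.26 (adjusted p = 0.000888), Col11a2 0.88 ± 0.25 (adjusted p = 0.0056), Col5a3 0.82 ± 0.20 (adjusted p = 0.00128) and the transmembrane collagen Col13a1 0.75 ± 0.23 (adjusted p = 0.00925). All 8 stayed called in each of 80 fits that left out 1 library. Fibroblast markers in males summed to a median of 2160 CPM (1550 to 2660) in the first range and 1720 (944 to 2110) in the second, and in females to 2040 (1810 to 2600) and 2220 (1330 to 2570). In males 6 of 8 fibroblast, 4 of 4 adipocyte and 4 of 6 atrial markers were called lower in the second range, and 1 atrial and 3 of 8 endothelial markers higher. In females 1 of 8 fibroblast and 1 of 8 endothelial markers were called higher, and no atrial or adipocyte marker was called. Of 5 activated fibroblast markers, 2 were called lower in males and 2 higher in females. Of 6 pericyte and smooth muscle markers tested, 4 were called lower in males, and 2 higher and 1 lower in females. Of 5 valve and epicardial markers tested, 1 was called higher and 2 lower in males, and 0 in females. Of 6 cardiomyocyte markers, 1 was called higher and 1 lower in each sex. The ribosomal RNA gene Rn18s-rs5 had a median of 3478 CPM (1520 to 22020) in the first range and 16350 (11570 to 32650) in the second in males, and of 37080 (1031 to 56130) and 4895 (3974 to 7368) in females. The part of these in the differences was not tested.

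**Figure D4:**
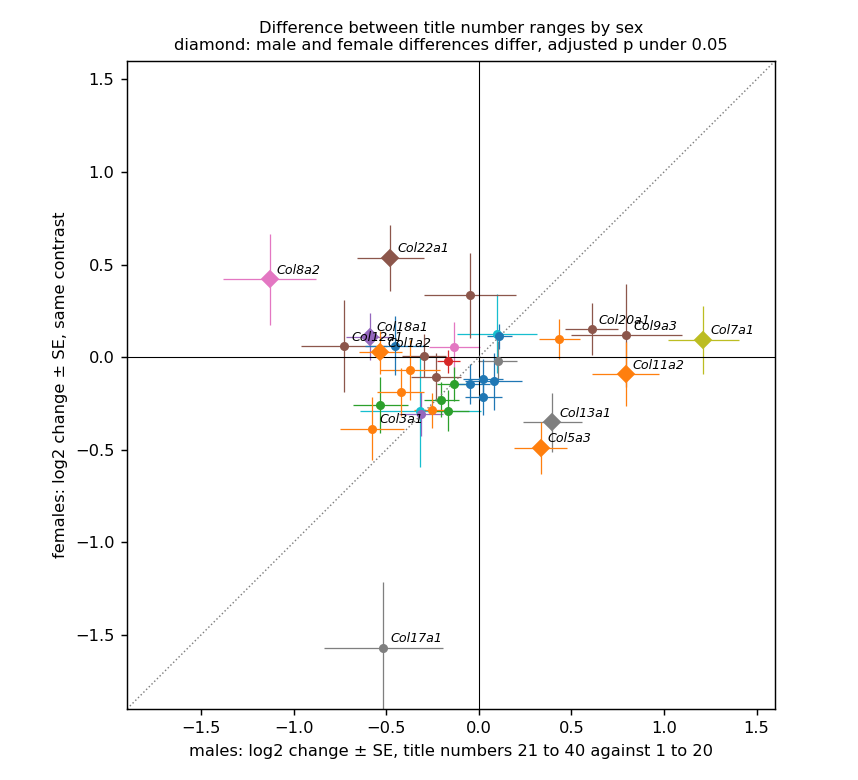
Log2 difference of title numbers 21 to 40 against 1 to 20 in males (horizontal) and females (vertical) for the 36 tested members. Diamonds mark the 8 members whose difference between the sexes was called, among them Col7a1 (1.21 in males) and Col8a2 (−1.13 in males).

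Of 55 genes of collagen processing, turnover and reception, 53 were tested. Leaving out each library in turn was summarised for members only, so calls on these genes have no such check here. For the Western diet in males edgeR called 0 of 53 against 0.397% of all genes, with 12 at an unadjusted p under 0.05. The smallest p-values were those of the lysyl oxidase gene Loxl4 (0.88 ± 0.25, adjusted p = 0.0835) and of the inhibitor gene Timp3 (0.62 ± 0.18, adjusted p = 0.0903), followed by Timp4 (0.60, adjusted p = 0.121) and Lox (1.02, adjusted p = 0.188). Timp3, the matrix-bound metalloproteinase inhibitor, was the 1 of 53 called between the sexes in the response to the diet (1.07 ± 0.26, adjusted p = 0.0297). In that comparison 0.447% of all genes were called. Its medians were 80.4 CPM (62.2 to 104.3) in male sham, 129.6 (75.5 to 147.2) in male Western diet, 129.4 (68.0 to 180.9) in female sham and 82.1 (44.9 to 124.2) in female Western diet libraries. The groups overlap in each sex, and the medians lie in opposite order. Within title numbers 1 to 20 the difference between the sexes was 0.93 (adjusted p = 0.144) and within 21 to 40 it was 1.17 (adjusted p = 0.376).

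Timp4, the cardiac inhibitor of this family, was the 1 of 53 called between mixed field and gamma in males, against 0.573% of all genes. It had 15.8, 25.2 and 39.8 CPM (lowest, median and highest) in mixed field and 9.10, 14.9 and 24.1 in gamma libraries, a difference of 0.84 ± 0.19 (adjusted p = 0.0121), which was 0.54 (adjusted p = 0.418) in title numbers 1 to 20 and 1.16 (adjusted p = 0.0112) in 21 to 40. Between sham males and females, the metalloproteinase gene Mmp14 was higher in males (0.69 ± 0.18, adjusted p = 0.0245) and Pcolce2, which enhances propeptide cleavage, lower (−0.45 ± 0.12, adjusted p = 0.0322). Over all genes 1.2% were called between the sham groups. The differences of Mmp14 and Pcolce2 were 0.39 and −0.12 in title numbers 1 to 20 and 1.05 and −0.75 in 21 to 40. Between title ranges, 4 of 53 were higher and 12 lower in males, beside 29.8% of all genes called, and 6 higher and 5 lower in females, beside 24%. In males the inhibitor gene Timp2 (−0.34), the integrin gene Itgb1 (−0.21), the collagen receptor gene Ddr1 (−0.30) and the prolyl hydroxylase gene P4ha2 (0.23) had the smallest p-values. In females these were Itgb1 (−0.22), Ddr2 (−0.41), Crtap (0.20) and Plod3 (0.29), and for the difference between the sexes, where 1 was higher and 9 lower beside 26.9% of all genes, Crtap (−0.38), Ddr1 (−0.55), Adamts14 (0.94) and Timp2 (−0.38).

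Several pairs of chains, most of the same collagen type, were compared across libraries once the mean of each group and title range was removed. Over 80 libraries, Pearson's r was 0.967 between Col4a1 and Col4a2 (Spearman's rho 0.962), 0.938 between Col6a1 and Col6a2 (rho 0.926) and 0.911 between Col1a1 and Col1a2 (rho 0.862). It was 0.938 between Col1a1 and Col3a1 (rho 0.894), which are chains of different collagen types. It was 0.792 between Col5a1 and Col5a2 (rho 0.763) and 0.575 between Col8a1 and Col8a2 (rho 0.528). For each of these 6 the permutation p was 1e-05 for both coefficients, the smallest that 100000 permutations can give, and 1.5e-05 for r and 1.71e-05 for rho after Benjamini-Hochberg adjustment over 12 pairs computed. Without the 2 libraries farthest from the median, r was 0.960, 0.922, 0.879, 0.923, 0.793 and 0.543. Libraries share their depth and tissue composition, and Col4a1 and Col4a2 lie head to head with starts 317 bases apart and an overlap of 356 bases, so part of their reads may be shared.

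Serpinh1 was compared with the main type IV and fibrillar chains and with a modifying enzyme. Its r was 0.628 with Col4a1 (rho 0.563; permutation p = 1e-05 and 3e-05), 0.493 with P4ha1, a prolyl hydroxylase subunit (rho 0.512; permutation p = 0.0006 and 5e-05), 0.455 with Col1a1 (rho 0.421; permutation p = 0.00158 and 0.00124) and 0.422 with Col3a1 (rho 0.375; permutation p = 0.00511 and 0.00374). Adjusted over the 12 pairs these are 1.5e-05 and 4.5e-05, 0.0008 and 6.67e-05, 0.0019 and 0.00149, and 0.00557 and 0.00408. Without the 2 farthest libraries r was 0.568, 0.461, 0.408 and 0.373, and the difference between these r values was not tested. In males alone r was 0.509, 0.313, 0.286 and 0.315, and in females 0.717, 0.648, 0.655 and 0.551. Col15a1 had an r of 0.638 with Col4a1 (rho 0.650; permutation p = 1e-05 for both; 0.642 without the 2 farthest libraries), with 0.871 in title numbers 1 to 20 and 0.466 in 21 to 40. Col1a1 and the fibroblast marker Pdgfra had an r of −0.012 (rho −0.022; permutation p = 0.93 and 0.857).

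Over all 465 pairs of the 31 members with at least 1 CPM the median r was 0.284. The median within fibrillar members was 0.544, within type VI 0.464 and within type IV 0.248. The member closest to Col5a3 was Col4a2 (0.746), that closest to Col15a1 was Col6a2 (0.816), and that closest to Col14a1 was Col1a2 (0.735). Col7a1 and Col11a2 were closest to each other (0.727), as were Col4a3 and Col4a4 (0.653), whose starts lie 103 bases apart on opposite strands. Col4a5 and Col4a6, with starts 1282 bases apart, were not each other's closest member (0.312), and Col4a5, which forms a trimer with Col4a3 and Col4a4, had 0.177 and 0.0877 with them. Among 13423 other genes with at least 1 CPM, the 8 most like Serpinh1 were Tlnrd1 (0.762), Tubb2a (0.752), Rhoc (0.735), Mxra7 (0.707), Hspb1 (0.697), Cfl1 (0.697), Trp53i11 (0.69) and Ltbr (0.686), given as a description over these 80 libraries.

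**Figure D5:**
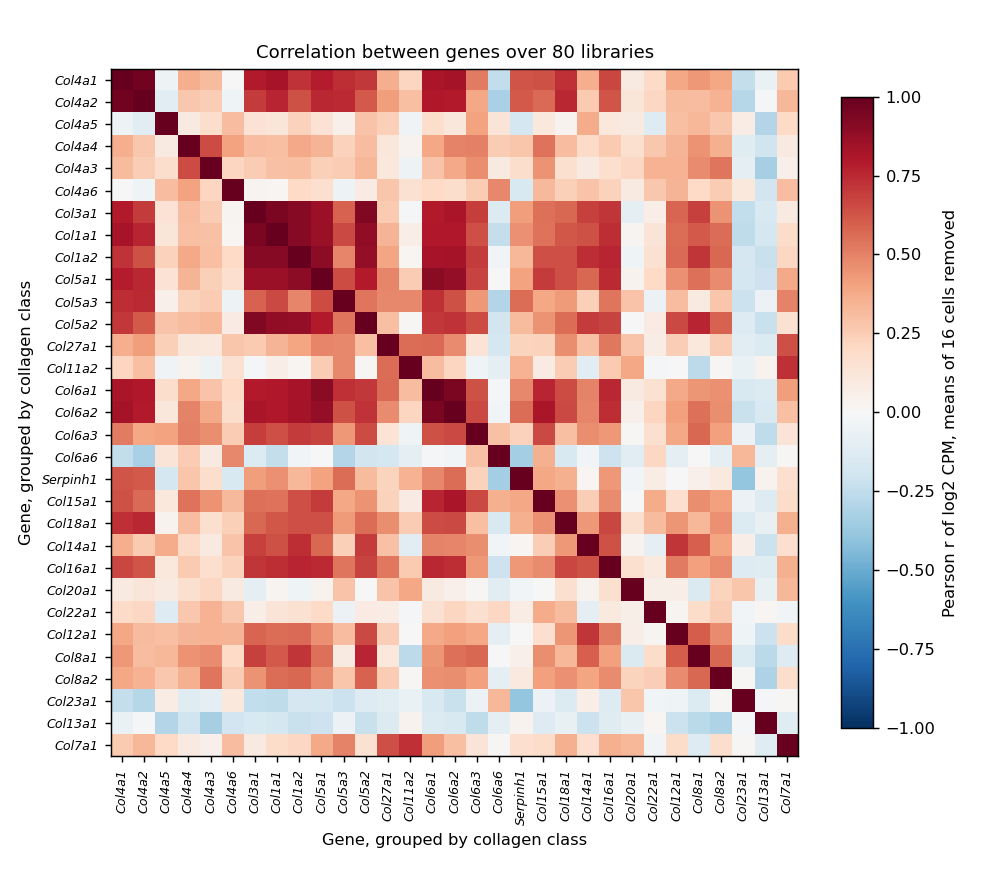
Pearson's r between the 31 members with at least 1 CPM over 80 libraries, on log2 CPM with the mean of each group and title range removed, ordered by class. The highest value is that of Col4a1 and Col4a2 (0.967), and Serpinh1 is at 0.628 with Col4a1.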

How the data were processed

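The deposited table held whole-number counts per gene for 56941 genes in 80 libraries of left ventricular tissue, and these raw counts of the authors were used as deposited. Reads were checked with FastQC 0.11.9 and aligned with STAR 2.7.8a to GRCm39, per the submitters' processing notes. How reads were counted, with which annotation and strand setting, is not given in the sources used here. Gene symbols, exon lengths and start sites came from GENCODE vM39, which matched 56323 genes. Exon length was that of all annotated exons of a gene joined. Total counts per library limit the precision of low members.

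Counts were filtered (filterByExpr, 15879 genes kept), scaled by TMM and fitted with edgeR 4.0.16 in R 4.3.3 (glmQLFit and glmQLFTest) over all 80 libraries, with 8 groups for comparisons of diet, field and sex and with 16 groups by title range for comparisons of title ranges. Calls used Benjamini-Hochberg adjusted p under 0.05, and the overall coefficient of biological variation was 20.4%. DESeq2 1.42.0, limma-voom (limma 3.58.1), other scalings, filters and library sets, and leaving out each library were alternatives. Scripts were tested on simulated data. Correlations used log2 CPM (0.25 CPM added) with 100000 permutations. P-values measure the spread between libraries, which may be technical.

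The genes named were Serpinh1, Col1a1, Col1a2, Col3a1, Col4a1, Col4a2, Col15a1, Col8a1, and every called member per comparison, or the 3 of smallest p where none was called. The highest and lowest per kb in each class, and up to 4 processing genes per comparison, were also named. A limit of 12 called members per comparison by smallest p had been planned, and the title ranges in males went over it. The members, lists and tests were chosen with earlier results of these data known.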

Additional observations from a re-analysis of the deposited data

Results flagged for a closer look

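Single libraries stood far from the rest of their group for named members, where the gap to the next library was more than 0.466 of the group's range. For normally distributed values this occurs in about 1 in 20 groups. That rate need not hold here, as CPM was used without logs. Sets also share libraries, and members vary together. Such a gap was seen in 10 of 80 sets of a named member and a group, and in 38 of 296 sets over all members. These counts are description only and do not show an excess. Male mixed field replicate 4 was highest in Col3a1 (730.4 CPM, next 213.9), Col1a2 (387.2, next 174.8), Col1a1 (363.0, next 121.4), Col14a1 (37.74, next 16.76) and Col8a1 (85.0, next 33.92), that is, in chains of interstitial fibrils, a fibril-associated chain and a network chain of the same library. Male sham replicate 9 was highest in Col3a1 (351.0 CPM, next 250.2) and Col1a1 (194.9, next 140.9). Male Western diet replicate 6 was highest in Col5a3 (63.17 CPM, next 39.27), female sham replicate 10 in Col14a1 (39.55, next 28.78), and male gamma replicate 10 was lowest in Serpinh1 (147.1 CPM, next 186.1).

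Some effects differed between the sexes by the test of the difference itself. The response of Col5a3 to the Western diet differed by −1.481 (male minus female, SE 0.325, edgeR adjusted p = 0.0121). The difference of title numbers 21 to 40 against 1 to 20 differed between the sexes for Col8a2 (−1.551), Col22a1 (−1.016), Col18a1 (−0.7007) and Col1a2 (−0.5578), and, with the opposite sign, for Col7a1 (1.119), Col11a2 (0.884), Col5a3 (0.8229) and Col13a1 (0.7483). The labels do not state what the title ranges stand for, or whether they stand for the same in both sexes. For the title ranges, sex therefore cannot be told apart from separate handling of male and female libraries.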

How the results depend on the processing

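Counts of called members kept within 1.5 times of the reported count in the alternatives run, with these exceptions. For the Western diet in males, where 1 member was called, the count was 0 with no filter on low counts, with terms for title range and Rn18s-rs5 in each sex (a choice made after seeing the data), in title numbers 21 to 40 and without the libraries above 10 CPM of Myl7. It was 2 with limma-voom (Serpinh1 and Col5a3), 3 with a title range term (also Col15a1), 4 with the groups compared alone (Serpinh1, Col6a1, Col6a2 and Col15a1), and 0 to 3 when libraries were left out in turn. In title numbers 1 to 20 alone the 1 called member was Col5a3, not Serpinh1. For the mixed field in males the count was 0 to 1 when libraries were left out in turn. For the male minus female diet response it was 0 in title numbers 21 to 40 and without the libraries above 10 CPM of Myl7. For mixed field against gamma in males it was 0 with limma-voom, in either title range, without those libraries, and at the lowest when libraries were left out. For the title ranges in females, where 5 members were called, it was 8 with no filter, with the groups compared alone and without female gamma replicate 7, and up to 9 when libraries were left out. Without the libraries above 10 CPM of Myl7 the title range comparison in males, and its difference between the sexes, could not be fitted. The male sham, Western diet and gamma libraries that remained were all of title numbers 21 to 40. The causes of these differences were not tested.

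Changes that turned sign were those of members that were not called. In title numbers 21 to 40, Western diet females had 0.0781 for Col15a1 and 0.0795 for Serpinh1, gamma females 0.000553 for Col15a1, and mixed field against gamma females −0.194 for Col4a2. In title numbers 1 to 20, Serpinh1 was at 0.00521 in mixed field males and 0.0504 in gamma females, Col15a1 at 0.0964 in mixed field females, and Col26a1 at 0.0143 in gamma males. Without the libraries above 10 CPM of Myl7, gamma males had −0.0147 for Col23a1 and 0.0271 for Serpinh1. Leaving out 1 library gave −0.0742 to 0.0439 for Serpinh1 in Western diet females, −0.162 to 0.0144 for Col15a1 in mixed field females (highest without replicate 10), −0.0933 to 0.0166 for Serpinh1 in gamma females, and −0.0382 to 0.122 for Col5a3 in gamma males.

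Title numbers are shared by a male and a female library, and the labels do not say that they pair them. With the title number as a replicate block, the comparisons between the sexes called 1 member for the diet, 0 for the mixed field, 0 for gamma rays, 1 for sham and 9 for the title ranges (8 without it). Libraries with the same number correlated between −0.34 and 0.271 after removing the means of group and title range (median 0.00344 over 40 pairs), 9 of 40 pairs were over 0.1, and 2 of 40 males and 0 females were closest to their own number. Counting noise limits members under 1 CPM most, such as Col17a1 and Col26a1.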
